A study of Homo sapiens with 12 samples.

Results

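Cohesin is the ring-shaped protein complex that holds sister chromatids together from DNA replication until anaphase and that also folds interphase chromatin into loops. The 10 genes described here are its ring subunits SMC1A, SMC3 and RAD21, the HEAT-repeat subunits STAG1, STAG2, PDS5A and PDS5B, and 3 enzymes or binding proteins that act on the ring through the cell cycle, ESCO2, CDCA5 (sororin) and ESPL1 (separase). They were taken by gene symbol as cohesin subunits and regulators, with earlier results of these data known. All 10 are among the 14828 genes measured and all 10 passed the filter on low values, which 14624 genes passed.

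The cells were 22Rv1, an established human prostate carcinoma line, carrying a lentiviral Tet-On vector (pTRIPZ) selected with puromycin, from which doxycycline switches on a short hairpin RNA (shRNA). The 3 groups differed by design in the hairpin: shNT is nontargeting, and shCENPA1 and shCENPA2 target CENPA, the histone H3 variant that marks centromeres. The cells of a group were made by transduction and selection with its vector, so hairpin and derivation of the cells cannot be told apart. All groups received doxycycline at 2 µg/ml for 72 h, so that no group lacked vector or drug. The sample labels number every run as a replicate of its own. The run names, however, give 2 libraries of poly(A) RNA per group, each run in lanes 7 and 8. The mean of both lanes was therefore taken as 1 replicate (n = 2 libraries per group throughout). Nothing says that the libraries came from separate cultures, so the p-values measure the spread between these libraries, which may be technical.

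The ring opens and closes under tight control. NIPBL and MAU2 load it on DNA, WAPL with the PDS5 proteins lets it off again, and during S phase ESCO1 and ESCO2 acetylate SMC3, which lets sororin bind PDS5 and hold off WAPL. In prophase, mitotic kinases strip most cohesin from the arms while shugoshin with the phosphatase PP2A protects the centromere. At anaphase the destruction of securin (PTTG1) frees separase, which cuts RAD21. The subunits of the ring are made in most cells, cycling or not, whereas sororin, separase and ESCO2 are known as genes of dividing cells.

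Levels are given as log2 RPKM, the logarithm of reads per gene length and library size. Orders and ratios between different genes depend on the gene lengths used, while the change of a gene between groups does not. Differences between groups are log2 fold changes from limma, and a gene is said to have fallen or risen only where its p-value, adjusted by the Benjamini-Hochberg method over the 14624 genes, was under 0.05. The smallest two-sided p of an exact permutation test of 2 libraries against 2 is 0.333, and calls on single genes therefore depend on limma's pooled estimate of the spread.

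The libraries held 79172294 to 133074655 reads on genes, and a member had 1126 to 44118 reads in a library. CENPA itself read 2.46 and 2.18 log2 RPKM under shNT, 0.50 and 0.58 under shCENPA1, and -0.47 and -0.41 under shCENPA2, so every knockdown library was below both controls. Of 7 markers of prostate epithelial lines, 5 (HOXB13, FOXA1, KRT8, KRT18 and EPCAM) lay between 5.23 and 8.39 log2 RPKM, while KLK3 and KLK2 lay between -2.17 and 0.62. Of 5 markers of blood, endothelial and fibroblast cells only COL1A1 was in the table, at -0.07 to 0.37 log2 RPKM. Of the 7 prostate markers, 3 fell (KLK3, KLK2 and FOXA1) and 1 rose (HOXB13) with shCENPA2, where 10.5% of all genes tested fell and 8.05% rose. With shCENPA1, 0 fell and 0 rose by limma (1 and 1 at an unadjusted p under 0.05), and 0 fell and 1 rose by voom. Of all genes tested, 4.45% fell and 2.69% rose with shCENPA1 by limma.

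With both hairpins the changes of the 3 regulators were larger than that of any ring, STAG or PDS5 gene. CDCA5, ESPL1 and ESCO2 fell past 2-fold with each hairpin, SMC1A was 28.5% and 24.0% lower, and no member rose. With shCENPA1, 4 of 10 members fell, where 4.45% of all genes tested fell and 2.69% rose. With shCENPA2, 7 of 10 members fell, where 10.5% of all genes fell and 8.05% rose. The 4 members that fell with shCENPA1 (SMC1A, CDCA5, ESPL1 and ESCO2) also fell with shCENPA2, and 4.13% of all genes fell with both. Past 2-fold, 3 of 10 members fell with each hairpin, against 1.83% of all genes with shCENPA1 and 4.45% with shCENPA2. The count of 0 members that rose with limma was also 0 at an unadjusted p under 0.05 and 0 with voom on the recovered reads. Both comparisons use the same shNT libraries and are therefore not independent of each other.

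The median log2 fold change of the members was -0.37 with shCENPA1 and -0.39 with shCENPA2, beside 0.00 and 0.01 over all genes tested. Both shCENPA1 libraries lay below both shNT libraries for 8 of 10 members, the exceptions being STAG2 and PDS5B. Both shCENPA2 libraries did so for 10 of 10. Over all genes, 27.1% lay below in this way with shCENPA1 and 31.0% with shCENPA2.

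Genes of the dividing cell moved with these groups, in lists chosen with earlier results of these data known. In a list of 10 S phase genes, such as PCNA and the MCM helicase subunits, 10 of 10 fell with each hairpin, with medians of -1.01 and -1.39. In a list of 10 genes of G2 and mitosis, such as MKI67 and TOP2A, 10 of 10 fell, with medians of -1.32 and -1.65. Relative to the mean of shNT, the S phase list had a median of -1.04 and -0.98 in the shCENPA1 libraries and -1.29 and -1.48 in the shCENPA2 libraries, and the G2 and mitosis list -1.26 and -1.29, then -1.63 and -1.71. In these bulk samples, fewer cells in S phase or mitosis and less RNA per cell cannot be told apart, and the part of either in the changes of the members was not tested.

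**Figure D1:**
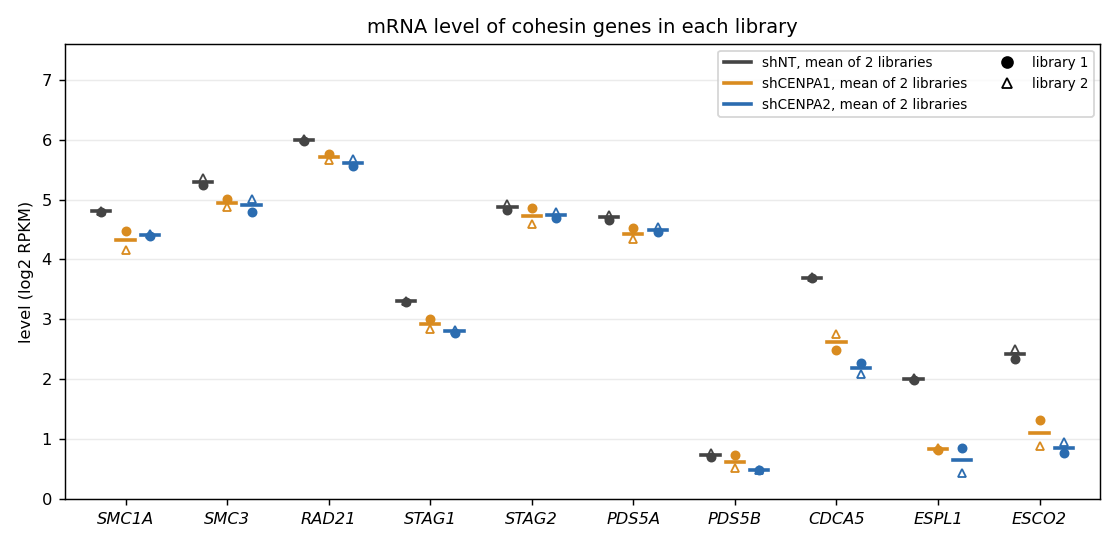
Level of each of the 10 genes in log2 RPKM (vertical axis) in each library, with filled circles for library 1, open triangles for library 2 and a bar for the mean of 2 libraries in shNT (grey), shCENPA1 (orange) and shCENPA2 (blue). The means of CDCA5, ESPL1 and ESCO2 drop by more than 1 unit from grey to the other colours, while those of the ring, STAG and PDS5 genes move by at most 0.50.

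In the control cells the order of the levels ran from RAD21, at a mean of 63.8 RPKM, down to PDS5B at 1.66 RPKM. On the log2 scale SMC3 came next after RAD21 at 5.30 ± 0.08 (SD, n = 2), followed by STAG2 at 4.88 ± 0.07, SMC1A at 4.80 ± 0.02 and PDS5A at 4.70 ± 0.06. The libraries of neighbours in this order did not overlap, but STAG2 and SMC1A do not differ beyond their spread, with a lower STAG2 library and a higher SMC1A library that both round to 4.82. The regulators stood lower, with CDCA5 at 3.69 ± 0.01, STAG1 at 3.30 ± 0.02 between them, ESCO2 at 2.42 ± 0.11 and ESPL1 at 2.01 ± 0.02. Under the CENPA hairpins the order changed. SMC1A stood below PDS5A, with means of 4.32 against 4.43 under shCENPA1, where their libraries overlapped, and with libraries at 4.40 and 4.42 against 4.45 and 4.54 under shCENPA2, which did not overlap. CDCA5 stood below STAG1, with means of 2.62 against 2.92 under shCENPA1 and 2.18 against 2.80 under shCENPA2, and ESPL1 came down to a mean of 0.64 under shCENPA2, where its libraries overlapped those of PDS5B.

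SMC1A, which with SMC3 forms the pair of coiled-coil arms of the ring (chrX:53374149-53422728, GRCh38, minus strand), read 4.79 and 4.82 log2 RPKM under shNT, 4.48 and 4.17 under shCENPA1, and 4.40 and 4.42 under shCENPA2. All 4 knockdown libraries were below both controls. It fell by 0.48 log2 units with shCENPA1 (SE 0.11, limma adjusted p = 0.0286), to a level 28.5% lower. With shCENPA2 it fell by 0.40 (SE 0.11, adjusted p = 0.0335), to a level 24.0% lower. The call with shCENPA1 was lost without shNT library 1 (adjusted p = 0.119), without shNT library 2 (adjusted p = 0.182) and without shCENPA1 library 2 (adjusted p = 0.128), and that with shCENPA2 without either shNT library (adjusted p = 0.136 and 0.174) or either shCENPA2 library (adjusted p = 0.101 and 0.0826). Both calls were also lost in limma without a trend in the variance (adjusted p = 0.0988 and 0.0969).

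SMC3, the subunit whose acetylation locks the ring on replicated DNA (chr10:110567684-110606048, plus strand), read 5.24 and 5.35 under shNT, 5.01 and 4.87 under shCENPA1, and 4.79 and 5.01 under shCENPA2. The groups did not overlap with the controls here either. With shCENPA2 it fell by 0.39 (SE 0.10, adjusted p = 0.0287), to a level 23.9% lower. With shCENPA1 the log2 fold change of -0.35 did not pass (adjusted p = 0.0791), with a 95% confidence interval from -0.59 to -0.12 before adjustment. It lay near the threshold, and passed with voom (adjusted p = 0.0493) and in limma with only the groups compared (adjusted p = 0.0495).

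RAD21, the kleisin that closes the ring and the substrate of separase, was the most abundant member in every group. It read 5.98 and 6.01 log2 RPKM under shNT, 5.77 and 5.66 under shCENPA1, and 5.57 and 5.67 under shCENPA2. With shCENPA2 it fell by 0.38 (SE 0.09, adjusted p = 0.0173), a level 22.9% lower, and with shCENPA1 the value of -0.28 did not pass (adjusted p = 0.0945, 95% interval -0.48 to -0.08). The shCENPA2 calls of SMC3 and RAD21 were lost without shNT library 1 (adjusted p = 0.0835 and 0.120), without shNT library 2 (adjusted p = 0.228 and 0.172) and without shCENPA2 library 1 (adjusted p = 0.127 and 0.0721), and in limma without a trend in the variance (adjusted p = 0.0887 and 0.0605).

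The STAG proteins are alternative subunits, and a ring carries either STAG1 or STAG2. STAG1 (chr3:136336236-136752403, minus strand) read 3.29 and 3.31 log2 RPKM under shNT, 3.01 and 2.83 under shCENPA1, and 2.78 and 2.82 under shCENPA2. With shCENPA2 it fell by 0.50 (SE 0.10, adjusted p = 0.00955), a level 29.2% lower, a call lost without shNT library 1 (adjusted p = 0.0753) or shNT library 2 (adjusted p = 0.0942). With shCENPA1 the value of -0.38 did not pass (adjusted p = 0.0624, 95% interval -0.61 to -0.14), but it did with voom (adjusted p = 0.028).

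STAG2 (chrX:123960212-124422664, plus strand) read 4.82 and 4.93 under shNT, 4.86 and 4.59 under shCENPA1, and 4.69 and 4.79 under shCENPA2, so 1 shCENPA1 library lay within the controls. Neither difference passed, at -0.15 with shCENPA1 (adjusted p = 0.465, 95% interval -0.39 to 0.09) and -0.14 with shCENPA2 (adjusted p = 0.429, 95% interval -0.38 to 0.11). With 1 library left out, the value with shCENPA1 ranged from -0.29 to -0.01. Within a library, STAG2 exceeded STAG1 by 1.58 ± 0.06 log2 units with shNT, 1.81 ± 0.07 with shCENPA1 and 1.94 ± 0.04 with shCENPA2 (SD, n = 2). That is 2.98, 3.50 and 3.84 times as much STAG2 as STAG1 in RPKM, and the 3 groups did not overlap. These differences within a library are descriptions and were not tested.

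PDS5A and PDS5B bind the ring at RAD21 and serve both its release and its protection. PDS5A (chr4:39822863-39977956, minus strand) read 4.66 and 4.75 log2 RPKM under shNT, 4.53 and 4.33 under shCENPA1, and 4.45 and 4.54 under shCENPA2. Every knockdown library was below the controls, but neither difference passed, at -0.27 (adjusted p = 0.144, 95% interval -0.49 to -0.05) and -0.20 (adjusted p = 0.188, 95% interval -0.42 to 0.02). PDS5B (chr13:32586452-32778019, plus strand), the least abundant member, read 0.70 and 0.77 under shNT, 0.73 and 0.51 under shCENPA1, and 0.49 and 0.48 under shCENPA2. Its differences of -0.11 (adjusted p = 0.725, 95% interval -0.47 to 0.25) and -0.25 (adjusted p = 0.325, 95% interval -0.61 to 0.11) did not pass either. With 1 library left out, the values with shCENPA1 ranged from -0.37 to -0.17 for PDS5A and from -0.22 to -0.0049 for PDS5B. PDS5A exceeded PDS5B within a library by 3.97, 3.81 and 4.01 log2 units in shNT, shCENPA1 and shCENPA2.

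The count of members that fell with shCENPA2 rested on these moderate changes. It was 3 of 10 in place of 7 without shNT library 1 or without shNT library 2, and 4 without shCENPA2 library 1. The members that remained called in each of these fits included CDCA5, ESPL1 and ESCO2.

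**Figure D2:**
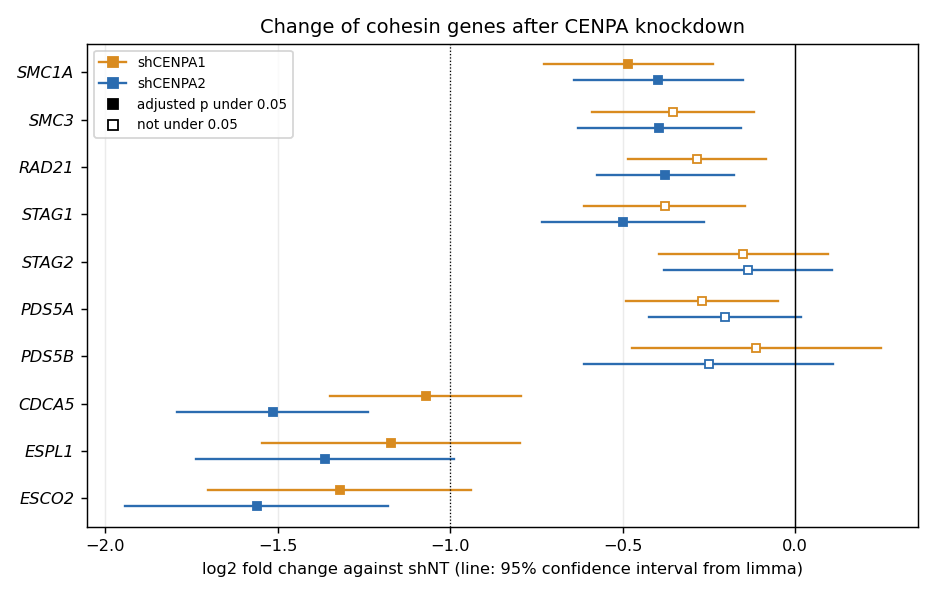
Log2 fold change against shNT (horizontal axis) of each member with shCENPA1 (orange) and shCENPA2 (blue), with lines for the 95% confidence interval from limma and filled squares where the adjusted p was under 0.05. CDCA5, ESPL1 and ESCO2 lie left of the dotted line at -1 with both hairpins, and the other members lie between -0.50 and -0.11.

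ESCO2 is the acetyltransferase that modifies SMC3 during replication. It read 2.34 and 2.50 log2 RPKM under shNT, 1.31 and 0.89 under shCENPA1, and 0.77 and 0.94 under shCENPA2. It fell, with log2 fold changes of -1.32 under shCENPA1 (SE 0.17, adjusted p = 0.00161) and -1.56 under shCENPA2 (SE 0.17, adjusted p = 0.000262). Its level was thus 60.0% and 66.1% lower. Only 0.704% of the genes tested had a lower log2 fold change with shCENPA1, and 1.67% with shCENPA2.

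ESCO1, the other SMC3 acetyltransferase, which also acts outside S phase, did not pass, at -0.14 with shCENPA1 (adjusted p = 0.637, 95% interval -0.47 to 0.20) and 0.01 with shCENPA2 (adjusted p = 0.981, 95% interval -0.33 to 0.34). Within a library, ESCO2 stood below ESCO1, at -1.16 and -0.98 log2 units from it under shNT, -2.09 and -2.41 under shCENPA1, and -2.47 and -2.80 under shCENPA2. In RPKM the ratio of ESCO2 to ESCO1 was 0.477 with shNT, 0.210 with shCENPA1 and 0.161 with shCENPA2. HDAC8, the deacetylase that recycles SMC3, did not pass (0.20, adjusted p = 0.402, and 0.10, adjusted p = 0.630).

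CDCA5 encodes sororin, which guards acetylated cohesin against WAPL until mitosis. It read 3.69 and 3.70 log2 RPKM under shNT, 2.50 and 2.75 under shCENPA1, and 2.28 and 2.08 under shCENPA2. The 3 groups did not overlap, with shCENPA2 lowest. Its log2 fold change was -1.07 with shCENPA1 (SE 0.12, adjusted p = 0.000897), a level 52.4% lower, and -1.51 with shCENPA2 (SE 0.12, adjusted p = 5.09e-05), a level 65.0% lower. Without shCENPA1 library 1 its log2 fold change with shCENPA1 was -0.94, short of 2-fold, and it kept an adjusted p under 0.05 in all 19 alternative analyses.

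Sororin and WAPL compete for PDS5, and WAPL did not pass with either hairpin (-0.16, adjusted p = 0.481, and -0.06, adjusted p = 0.767). CDCA5 stood -0.17 and -0.23 log2 units from WAPL under shNT, -1.40 and -0.83 under shCENPA1, and -1.48 and -1.83 under shCENPA2. The ratio of CDCA5 to WAPL in RPKM was thus 0.870 with shNT, 0.462 with shCENPA1 and 0.318 with shCENPA2. Against SMC3 the ratio of CDCA5 was 0.330, 0.200 and 0.151 in the same order.

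ESPL1 encodes separase, the protease that opens the ring at anaphase. It read 1.99 and 2.02 log2 RPKM under shNT, 0.82 and 0.85 under shCENPA1, and 0.85 and 0.43 under shCENPA2. Every knockdown library was more than 1 unit below both controls. Its log2 fold change was -1.17 with shCENPA1 (SE 0.17, adjusted p = 0.00272), a level 55.6% lower, and -1.36 with shCENPA2 (SE 0.17, adjusted p = 0.00053), a level 61.1% lower. PTTG1, its inhibitor securin, also fell, at -1.27 (adjusted p = 0.000383) and -1.61 (adjusted p = 4.12e-05). ESPL1 stood below PTTG1, at -3.35 ± 0.03, -3.25 ± 0.25 and -3.11 ± 0.26 log2 units (SD, n = 2) in shNT, shCENPA1 and shCENPA2, and these groups overlapped or differed by less than their spread.

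**Figure D3:**
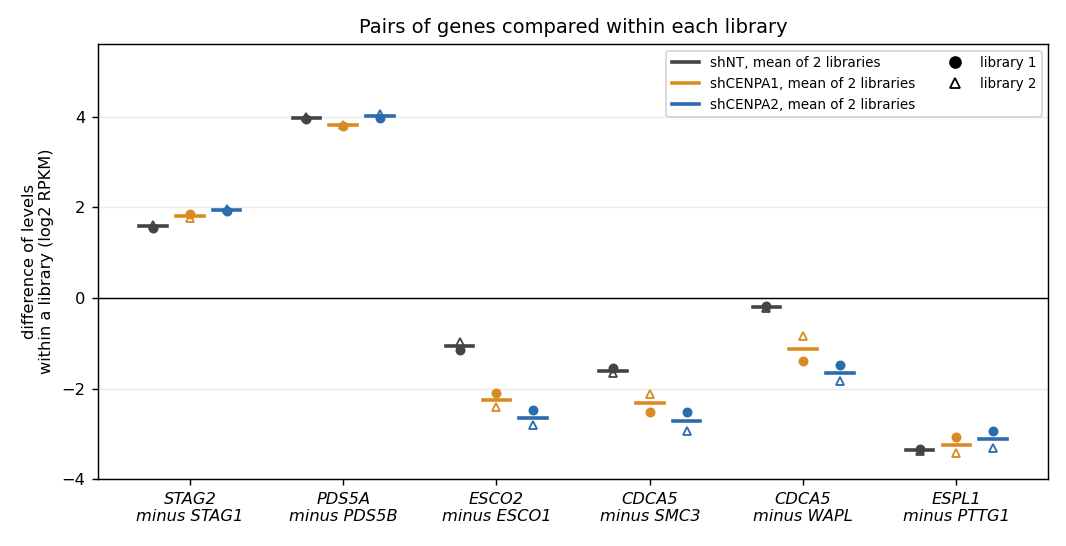
Difference of log2 RPKM between paired genes within each library (vertical axis), with filled circles for library 1, open triangles for library 2 and bars for the mean of 2 libraries in shNT (grey), shCENPA1 (orange) and shCENPA2 (blue). ESCO2 against ESCO1 and CDCA5 against WAPL or SMC3 drop in the knockdown groups, STAG2 against STAG1 moves up from 1.58 to 1.94, and ESPL1 against PTTG1 stays between -3.43 and -2.93.

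The promoters of CDCA5 and ESPL1 are shown because both genes fell past 2-fold, with that of SMC1A, which fell less, and that of PDS5A, which did not pass, for comparison. Each is the RefSeq window of 300 bases on GRCh38.p14, 250 before and 50 after the annotated start, written 5′ to 3′ on the gene's strand. Capitals mark letters searched on both strands, namely the cell cycle homology region (written TTTGAA in its usual form and, in the variant also searched, TTCGAA), the CCAAT box (which stands as its reverse complement where it lies on the other strand) and 4 E2F words (TTTCGCGC, TTTGGCGC, TTTCCCGC and TTTGGCGG). The windows are chr11:65083991-65084290 on the minus strand for CDCA5, chr12:53268049-53268348 on the plus strand for ESPL1, chrX:53422605-53422904 on the minus strand for SMC1A, and chr4:39977862-39978161 on the minus strand for PDS5A.
CDCA5: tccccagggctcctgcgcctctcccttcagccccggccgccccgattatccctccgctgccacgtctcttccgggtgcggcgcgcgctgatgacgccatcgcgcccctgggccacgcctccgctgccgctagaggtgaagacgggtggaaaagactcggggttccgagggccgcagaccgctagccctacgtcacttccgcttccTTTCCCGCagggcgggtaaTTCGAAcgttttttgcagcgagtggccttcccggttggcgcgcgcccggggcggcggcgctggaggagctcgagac
ESPL1: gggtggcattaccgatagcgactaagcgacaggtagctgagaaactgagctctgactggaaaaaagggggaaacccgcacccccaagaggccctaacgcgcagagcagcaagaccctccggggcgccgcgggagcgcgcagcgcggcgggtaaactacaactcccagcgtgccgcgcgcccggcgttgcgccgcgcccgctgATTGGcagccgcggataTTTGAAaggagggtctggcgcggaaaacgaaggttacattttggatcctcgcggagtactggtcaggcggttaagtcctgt
SMC1A: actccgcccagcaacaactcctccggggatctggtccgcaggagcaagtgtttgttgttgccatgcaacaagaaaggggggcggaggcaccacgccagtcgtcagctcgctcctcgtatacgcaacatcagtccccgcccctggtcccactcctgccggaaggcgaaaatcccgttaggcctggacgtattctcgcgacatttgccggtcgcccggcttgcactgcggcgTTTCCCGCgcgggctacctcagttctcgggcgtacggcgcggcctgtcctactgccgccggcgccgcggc
PDS5A: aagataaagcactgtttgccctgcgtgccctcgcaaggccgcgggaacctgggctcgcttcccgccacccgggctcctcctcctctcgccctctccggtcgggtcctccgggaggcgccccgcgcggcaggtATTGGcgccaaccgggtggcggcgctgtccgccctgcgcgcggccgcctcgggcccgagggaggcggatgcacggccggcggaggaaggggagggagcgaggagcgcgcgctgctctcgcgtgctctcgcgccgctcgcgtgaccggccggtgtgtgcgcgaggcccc

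CDCA5 holds TTCGAA from -26 and TTTCCCGC from -45, counted from the annotated start. ESPL1 holds TTTGAA from -31 with an inverted CCAAT from -48. Of 34943 promoter windows of this length, 16.4% hold either homology region word, 34.6% hold CCAAT and 3.34% hold any of the E2F words. Windows were found for 8 of 10 members, but not for RAD21 or for ESCO2, which also fell past 2-fold. Of the other members with a window, SMC1A holds TTTCCCGC from -20 in the window shown, which was chosen for this match. Its second window (chrX:53422679-53422978), at the start of the gene in GENCODE 44, holds none of the words. SMC3 holds an inverted TTTGAA from -151, and PDS5B holds TTTGAA from position 6 with an inverted CCAAT from -29. STAG1 holds an inverted CCAAT from -241 and from position 1 with TTTCCCGC from -183, PDS5A holds an inverted CCAAT from -118, and of 3 windows of STAG2, 2 hold an inverted CCAAT, 1 of these also TTTGGCGC from -51, and 1 holds no word. These words were found in members that fell strongly and in members that did not pass, and a match describes the letters only.

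The 2 hairpins were also compared with each other directly. No member differed between shCENPA2 and shCENPA1 at an adjusted p under 0.05, where 1.42% of all genes did. At an unadjusted p under 0.05 there was 1 member, with limma and also with voom, and 0 members passed the adjusted threshold with voom. That member was CDCA5, which was lower with shCENPA2 by -0.44 (SE 0.12, limma adjusted p = 0.146, 95% interval -0.72 to -0.17). ESCO2 differed by -0.24 (95% interval -0.62 to 0.14) and ESPL1 by -0.19 (95% interval -0.57 to 0.18). CENPA itself was lower with shCENPA2 than with shCENPA1 by -0.98 (adjusted p = 0.0209). The other 7 members differed by -0.14 to 0.09, with intervals that all held 0.

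**Figure D4:**
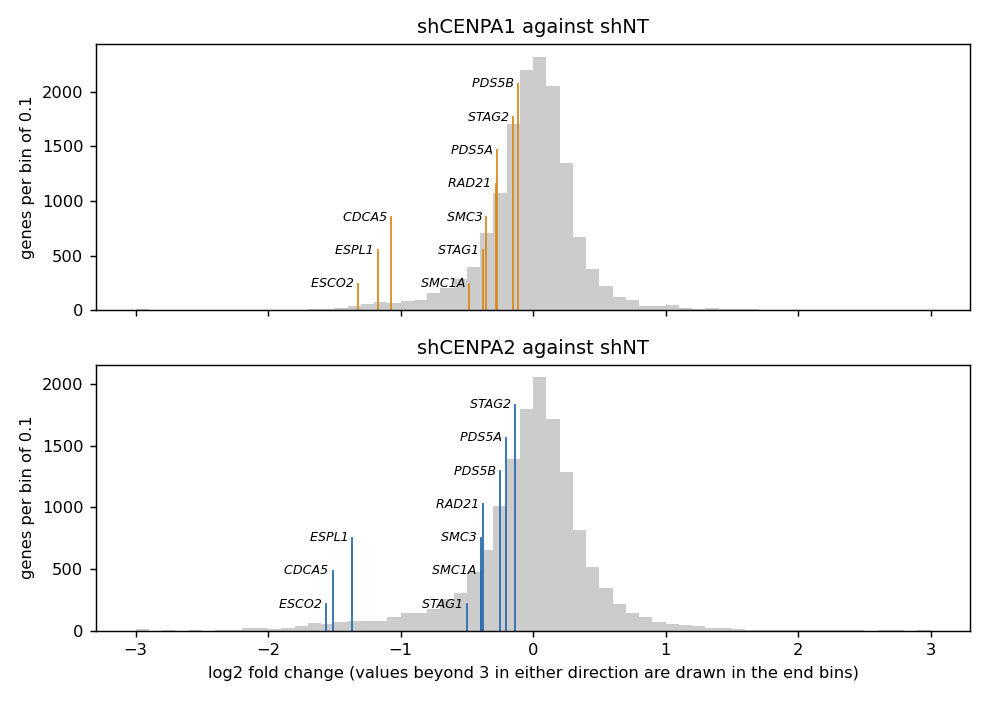
Distribution of log2 fold changes over the 14624 genes tested (grey, number of genes per bin of 0.1) with shCENPA1 (upper panel) and shCENPA2 (lower panel), and coloured lines at the values of the 10 members. ESCO2, ESPL1 and CDCA5 lie in the lower tail of both panels, while the other members lie on the left shoulder of the main peak.

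The rest of the cohesin pathway was followed in a list of 31 genes written from general knowledge, with earlier results of these data known. Of these, 28 were in the table (REC8, RAD21L1 and STAG3 were not), and all 28 were tested. With each hairpin 15 of 28 fell and 0 rose, the same 15 genes in both, and 13 did not pass. Of all genes tested, 4.45% fell with shCENPA1, 10.5% with shCENPA2 and 4.13% with both. Their median change was -0.74 with shCENPA1 and -0.95 with shCENPA2 on the log2 scale. Past 2-fold, 10 fell with shCENPA1, against 1.83% of all genes, and 13 with shCENPA2, against 4.45%. At an unadjusted p under 0.05, 1 gene (PPP2R1A, a scaffold subunit of PP2A) was higher with shCENPA1 and 0 with shCENPA2 by limma, and by voom 1 with shCENPA1 (PPP2R1A) and 1 with shCENPA2 (MAU2).

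The genes that load and release the ring did not pass in either direction, 0 of 3 with each hairpin, and 0 of 3 at an unadjusted p under 0.05 by limma (with voom, 1, MAU2, was higher with shCENPA2). Of all genes tested, 4.45% fell and 2.69% rose with shCENPA1, and 10.5% fell and 8.05% rose with shCENPA2. A count of 0 of 3 does not set these genes apart from that. NIPBL, the loader, measured -0.20 with shCENPA1 (adjusted p = 0.471, 95% interval -0.53 to 0.13) and -0.03 with shCENPA2 (adjusted p = 0.903, 95% interval -0.36 to 0.30). Its partner MAU2 measured 0.16 and 0.25 (limma adjusted p = 0.441 and 0.161, 95% intervals -0.09 to 0.41 and -0.0039 to 0.50). Every knockdown library of MAU2 lay above both controls, as did those of HDAC8 and PPP2R1A. The share of all genes that lay above in this way was not computed, so this does not set MAU2 apart.

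Of the genes that help cohesion form at the replication fork, 4 of 7 fell with each hairpin. DSCC1, a subunit of the alternative clamp loader, fell, at -0.90 with shCENPA1 (adjusted p = 0.00148) and -1.66 with shCENPA2 (adjusted p = 2.23e-05). This was a difference of -0.76 between the hairpins, which passed (adjusted p = 0.0131). WDHD1, the fork scaffold also called AND-1, fell, at -1.17 (adjusted p = 0.0024) and -1.51 (adjusted p = 0.000257). TIMELESS and DDX11 also fell. CHTF18 did not pass, at -0.64 and -0.69 (limma adjusted p = 0.189 and 0.102). Neither did CHTF8, at 0.10 and -0.03 (adjusted p = 0.566 and 0.839), or TIPIN, at -0.40 and -0.07 (adjusted p = 0.171 and 0.783).

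At the centromere, 3 of 7 listed genes fell with each hairpin. SGO1, the shugoshin that shields mitotic cohesin, fell, at -1.43 (adjusted p = 0.00132) and -1.83 (adjusted p = 0.000135), the largest changes in the list. SGO2 fell, at -1.39 and -1.63 (adjusted p = 0.00126 and 0.000221), and BUB1, the kinase that recruits shugoshin, did so at -1.31 and -1.60 (adjusted p = 0.00216 and 0.00032). The 4 subunits of PP2A in the list did not pass with either hairpin.

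In the group of mitotic kinases and a cyclin that act on cohesin from prophase on, 5 of 5 genes fell with each hairpin. PLK1, which phosphorylates the STAG subunits, fell, at -1.15 (adjusted p = 0.000505) and -1.41 (adjusted p = 5.81e-05). AURKB fell, at -1.24 and -1.75 (adjusted p = 0.000545 and 3.13e-05). CDK1 with its cyclin CCNB1 fell, at -1.16 and -1.11 with shCENPA1 (adjusted p = 0.000191 and 0.000194) and -1.66 and -1.40 with shCENPA2 (adjusted p = 9.88e-06 and 1.75e-05), and CDK1 also differed between the hairpins, by -0.50 (adjusted p = 0.0364).

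HASPIN, a histone H3 kinase that protects cohesion at the centromere, listed under its older symbol GSG2, fell, at -1.07 (adjusted p = 0.00883) and -1.74 (adjusted p = 0.000263). Of the securin group both genes fell, PTTG1 as above and CDC20, the activator of its destruction, at -0.90 (adjusted p = 0.00222) and -1.48 (adjusted p = 5.81e-05). The meiotic subunit SMC1B also fell, and CTCF, the protein at which loops stop, did not pass (-0.17 and -0.21, limma adjusted p = 0.320 and 0.149). SMC1B, CTCF, TIMELESS, DDX11, CHTF18, CHTF8, TIPIN and PPP2R1A were named after their values were seen.

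**Figure D5:**
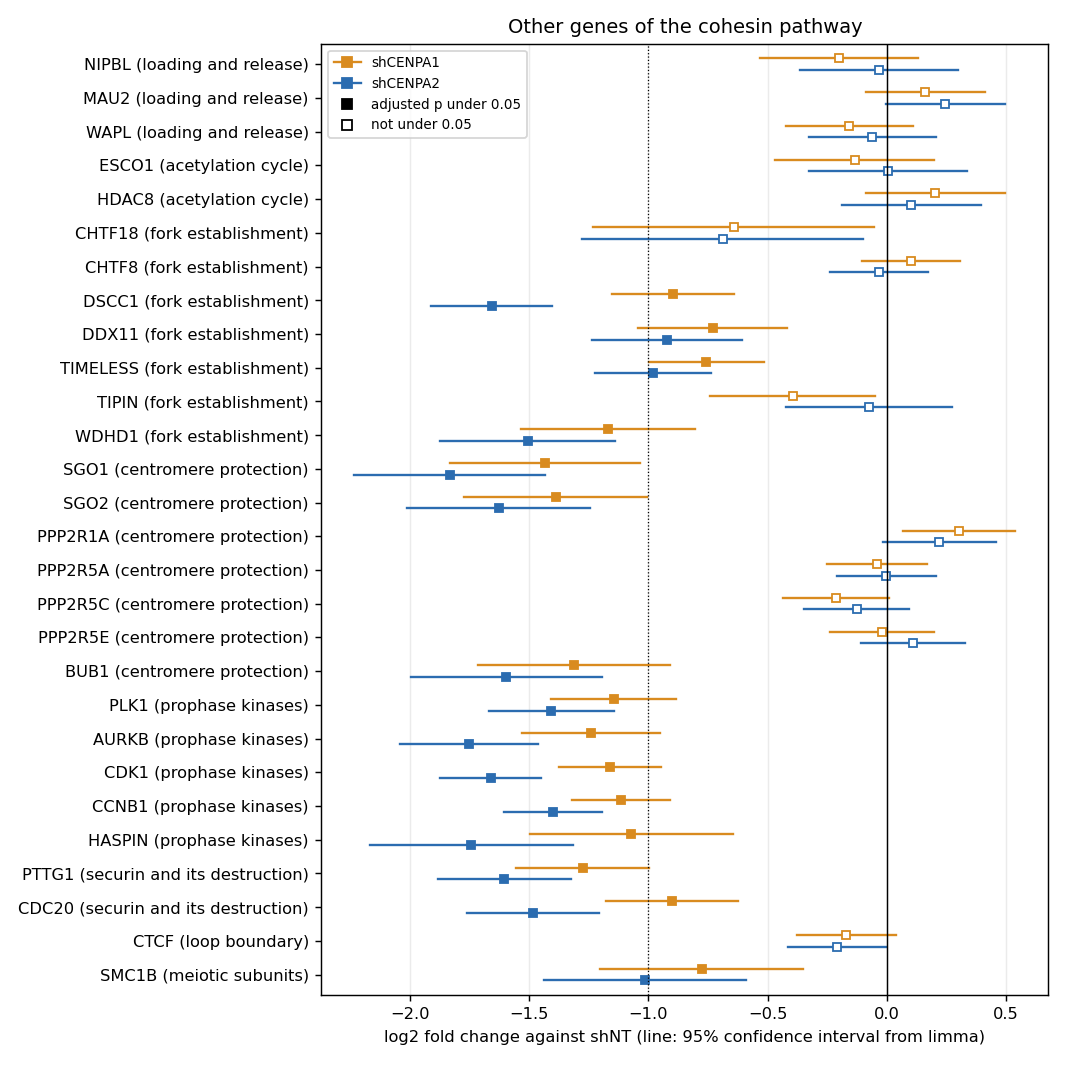
Log2 fold change against shNT (horizontal axis) of the 28 other cohesin pathway genes, each with its role, with shCENPA1 (orange) and shCENPA2 (blue), lines for the 95% confidence interval from limma and filled squares where the adjusted p was under 0.05. The loaders, WAPL, ESCO1, HDAC8, CTCF and the PP2A subunits lie between -0.21 and 0.30. The genes of the prophase kinase group, shugoshins, BUB1, PTTG1 and CDC20 lie between -1.83 and -0.90.

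The genes whose profile over the 6 libraries was nearest to that of a member, by the root mean square distance of log2 RPKM after each gene was centred on its mean, were TACC3 (0.032), ST3GAL5 (0.036) and UBE2C (0.042) for CDCA5. For ESPL1 they were HOXA13 (0.058), CDH23 (0.062) and PLK1 (0.068). For ESCO2 they were KNL1 (0.042), SSX9 (0.049) and GTSE1 (0.068). The list holds mitotic genes (TACC3, UBE2C, PLK1, KNL1 and GTSE1) and genes with no such known role (ST3GAL5, HOXA13, CDH23 and SSX9).

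Some members share exonic sequence with a gene on the opposite strand in GENCODE 44, and whether the counting used strand was not given in the sources used here. STAG1 shares 1661 bases with PCCB, RAD21 shares 576 with UTP23, STAG2 shares 241 with TENM1 and SMC1A shares 39 with RIBC1, and without strand their reads cannot be told apart. Genes not among those measured also overlap, RAD21-AS1 (271 bases) and STAG2-AS1 (28 bases) on the opposite strand. MIR3610 (49 bases) lies on the strand of RAD21 itself. CDCA5, ESPL1, ESCO2, SMC3, PDS5A and PDS5B share no exonic base with another gene there. The annotation also lists processed pseudogenes of SMC3 and RAD21 (SMC3P1 and RAD21P1), neither of which is in the table, and how reads shared with such copies were counted is not known.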

How the data were processed

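The authors deposited log2 RPKM for each run, made from paired-end, strand-specific reads by trimming (TrimGalore), alignment to hg38 (STAR), counting per gene (HTSeq) and, by the authors' methods, edgeR. Versions are not given in the sources used here. A prior count is contained in the deposited log2 values, taken as 0.25 reads on average and as 0.203 to 0.340 reads in single runs. It draws the fold changes of genes with few reads towards 0. For 14828 of 14828 genes the spacing of the values gave back whole reads, within 0.001 reads, and from these the depth.

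Both lanes of a library were averaged, and limma 3.58.1 (R 4.3.3) was run on the 14624 genes whose average was -3 log2 RPKM or higher (trend, 6 libraries of 3 groups in one fit, no covariate, Benjamini-Hochberg). The fit was tested on simulated data. Positions are from GENCODE 44 on GRCh38 (hg38), promoters from RefSeq. Pathway genes were named by the size of the smaller change of both hairpins (up to 12), with the loading, release and acetylation genes whatever their value. Nearest genes were the 3 closest profiles per gene. The members and lists were chosen with earlier results of these data known. Alternatives were single lanes, lanes as replicates, a replicate block, other filters, constants and normalizations, limma without trend, only the groups compared, voom on the recovered reads, and each library left out. A further 3 genes were left out of the lists and their counts, and are not reported here.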

Additional observations from a re-analysis of the deposited data

How the results depend on the processing

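Over 19 alternatives, the 10 members had negative log2 fold changes against shNT in all 400 values of both hairpins, the reported ones included, and CDCA5, ESPL1 and ESCO2 kept their calls in every one. Of 570 member values recomputed, 534 kept their direction and their side of the threshold, 19 lost the call, 10 gained it and 7 changed sign. With the lanes as replicates and their correlation estimated, 8 members fell with shCENPA1 and 1 (CDCA5, adjusted p = 0.0279) differed between the hairpins. With voom, 6 members fell with shCENPA1 and 7 with shCENPA2. With 1 added to RPKM, 1 member fell past 2-fold with shCENPA1 and 2 with shCENPA2. ESPL1 was then short of 2-fold with both hairpins (-0.85 and -0.97), and CDCA5 with shCENPA1 (-0.96). Without the trend in limma, 4 members fell with shCENPA2, and SMC1A lost its call with shCENPA1. The cause of these changes was not tested.

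With 1 library left out, where a lone library is assumed to vary like the other groups, members that fell numbered 3 to 5 with shCENPA1 and 3 to 7 with shCENPA2, and past 2-fold 2 to 3 and 3, and pathway genes that fell 10 to 15 and 14 to 16. The sign changes were all in the difference between the hairpins, which ranged from -0.068 to 0.24 for SMC1A, -0.15 to 0.073 for SMC3, -0.12 to 0.15 for STAG2, -0.033 to 0.16 for PDS5A and -0.40 to 0.016 for ESPL1. Libraries with the same number did not deviate together (r across genes -0.064, -0.095 and -0.145 between groups), and a replicate block gave the same counts, 4 members lower with shCENPA1 and 7 with shCENPA2. Voom took its library sizes from the recovered reads. Members rest on 1126 reads or more in every library, and the effect of depth was not tested.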
